A study of Mus musculus with 7 samples.

Results

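Interferon-stimulated genes are the antiviral genes that cells switch on after they sense an interferon. 39 of them were followed here, of 31907 genes listed in any of the deposited tables. They were taken by symbol from a list and were read in 3 tables of single-cell RNA-seq from mouse epidermis: 38 in the table of donor myeloid cells, where a value for Irf7 was not analysed here, and 39 each in the tables of keratinocytes and of host myeloid cells. The list held 6 regulators of the interferon response, 5 sensors of foreign nucleic acid, 4 genes of the Ifit family, 5 of the Oas family, 11 other antiviral effectors and 8 further genes induced by interferon.

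Type I interferons, made by many cell types, and type III interferons, which act mostly on epithelia, signal through receptor-bound kinases to a transcription factor complex that includes STAT2 and IRF9. That complex binds the interferon-stimulated response element (ISRE) in the promoters of its target genes. Interferon gamma, made by T cells and NK cells, signals through its own receptor to the gamma-activated sequence (GAS), and the target genes of both routes overlap in part. In skin, keratinocytes, monocytes and Langerhans cells, the macrophages of the epidermis, can all respond.

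Male CD45.2 C57BL/6 hosts had been lethally irradiated and given bone marrow of female CD45.1 C57BL/6 donors, so that donor and host cells could be sorted apart by CD45, and the epidermis was taken 3 weeks later. Libraries labelled bone marrow transplant (BMT) were compared with libraries labelled BMT plus T cells (BMT + T cells). The series text, unlike the BMT labels, lists CD4 T cells and Matahari (Mh) CD8 T cells, which recognize a male antigen, among what the hosts were given. The study also describes its sequenced donor cells and keratinocytes as taken after BMT with T cells. Whether the hosts of the libraries labelled BMT went without T cells is therefore not known here, and the comparisons below are between labels. Sorted CD11b+MHCII+ cells of donor origin gave 3 BMT libraries (replicates 1 to 3) and 1 BMT + T cells library (replicate 4), CD45-negative keratinocytes of the host gave 1 library of each label, and CD11b+MHCII+ cells of host origin gave 1 library labelled BMT, although the study describes these host cells as taken from skin with graft-versus-host disease. Cells of several mice had been pooled before sequencing, and no label ties a cell to a mouse. The keratinocyte and host groups had 1 library each and hence no replicates.

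The donor libraries held 2572, 8382, 226 and 719 cells (replicates 1 to 4), with median depths of 13387, 7021.5, 12081.5 and 12374 unique molecular identifiers (UMIs) per cell. The keratinocyte libraries held 2836 and 2590 cells at medians of 8895.5 and 8834 UMIs, and the host library held 781 cells at 4376 UMIs. The host library stood apart in quality, with a median of 14.0% mitochondrial UMIs and 208 cells above 20%. Any 2 libraries shared at most 7 cell barcodes. All levels below are means over cells of UMIs per 10000 UMIs of the cell (CP10K), log2 differences were taken after 0.1 was added to each level, and genes under a mean of 0.1 CP10K were left out of fold changes. Intervals on UMI counts cover counting error only.

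The promoters of 6 genes are printed first, because the Ifit genes, Isg15 and Bst2 stood highest in one donor cluster while Irf1 was lower there than in Mono, the classical monocytes. They were chosen among genes with a match near the start. Each stretch is the 170 bases before the listed start of transcription in RefSeq (GRCm38.p6), 5′ to 3′ on the strand of the gene. Capitals mark letters that match the ISRE (GAAA, any 2 bases, GAAA, or TTTC, any 2 bases, TTTC on the other strand) or the GAS (TTCNNNGAA, its own reverse complement). A match is a description of the letters and not a measured binding site. The 6 genes were picked by level and by match, so whether matches go with levels was not tested. Other genes, not printed, depart from the contrast. Ifit2, also highest in that donor cluster, had 0 ISRE matches and 1 GAS match in the wider windows described below. Socs1 and Ifitm3 had their highest mean level in Mono. In those windows Socs1 had 2 ISRE matches, and Ifitm3 had 2 ISRE matches and 1 GAS match.
Isg15 (chr4:156200819-156200988, minus strand), which encodes the ubiquitin-like protein ISG15, with 3 overlapping ISRE matches: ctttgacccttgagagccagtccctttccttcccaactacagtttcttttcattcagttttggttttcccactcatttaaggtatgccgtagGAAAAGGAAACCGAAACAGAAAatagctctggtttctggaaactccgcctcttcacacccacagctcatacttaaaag
Ifit1 (chr19:34640719-34640888, plus strand), an RNA-binding inhibitor of viral translation, with 2 ISRE matches: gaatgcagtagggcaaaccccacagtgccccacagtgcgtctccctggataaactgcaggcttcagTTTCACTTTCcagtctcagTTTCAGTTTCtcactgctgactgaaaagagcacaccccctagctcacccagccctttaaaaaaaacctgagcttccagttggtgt
Ifit3 (chr19:34583359-34583528, plus strand), its binding partner, with 2 ISRE matches: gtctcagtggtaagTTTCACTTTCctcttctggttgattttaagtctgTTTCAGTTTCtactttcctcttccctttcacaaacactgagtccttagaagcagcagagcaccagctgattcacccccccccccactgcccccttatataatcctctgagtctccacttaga
Ifit3b (chr19:34607787-34607956, plus strand), a near copy of Ifit3, with 1 ISRE match in the printed stretch: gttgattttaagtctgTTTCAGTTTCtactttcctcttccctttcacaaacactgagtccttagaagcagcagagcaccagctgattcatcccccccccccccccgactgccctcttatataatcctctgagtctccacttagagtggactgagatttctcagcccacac
Bst2 (chr8:71537473-71537642, minus strand), tetherin, which holds budding virus at the cell surface, with 2 ISRE matches and 1 GAS match that overlap: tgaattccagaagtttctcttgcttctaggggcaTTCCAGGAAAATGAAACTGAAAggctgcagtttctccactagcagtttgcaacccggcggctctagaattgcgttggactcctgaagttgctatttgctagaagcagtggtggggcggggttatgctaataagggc
Irf1 (chr11:53769844-53770013, plus strand, the first of 2 listed starts), a transcription factor of the interferon gamma response, with 1 GAS match: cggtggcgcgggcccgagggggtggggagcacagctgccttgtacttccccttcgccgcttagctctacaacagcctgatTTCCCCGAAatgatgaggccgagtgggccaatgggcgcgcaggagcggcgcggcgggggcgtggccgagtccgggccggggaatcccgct

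Over windows of 300 bases around each start, an ISRE match was present for 15 of the 29 members with a window (51.7%) and for 1079 of 27025 gene symbols (3.99%). A GAS match was present for 8 of the 29 (27.6%) and for 2582 of the 27025 (9.55%). Cmpk2, Herc6, Ifi44, Irf7, Irf9, Lgals3bp, Oasl1, Oasl2, Samd9l and Xaf1 held neither. Ifit2, with 2 listed starts, held no ISRE match and 1 GAS match, which begins at base -241 relative to one start. Ifi27l2a, Dhx58, Oas2, Mx1, Mx2, Usp18, Rtp4, Parp14, Zbp1 and Ifi204 had no entry.

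The first comparison asked how the genes were distributed over the donor myeloid clusters that the authors annotated: classical monocytes (Mono), interferon-stimulated gene monocytes (ISG monos), S100a+ and Hmox1+ monocytes, Mrc1+ macrophages (Mrc1+ macs), the cluster MC, and resident, migrating and cycling monocyte-derived Langerhans cells (mLCs). The ISG monos expressed most of the genes at their highest level. The study named that cluster from Isg15, Ifit2 and Ifit3, and the clusters were drawn from the same cells, so differences between clusters are given as a description without a test. 26 of the 38 genes had their highest mean level in ISG monos and 5 in Mono (Irf1, Socs1, Zbp1, Ifitm3 and Ifi27l2a). S100a+ monocytes had the highest mean of 4 (Irf9, Rsad2, Oasl2 and Trim30a), Mrc1+ macs of 2 (Stat2 and Oas2) and resident mLCs of 1 (Samd9l). These means took in different libraries per cluster, and S100a+ monocytes came from BMT replicate 2 alone. In that library Rsad2, Oasl2 and Trim30a were higher in ISG monos, and Irf9 was not. Stat2 and Oas2 were higher in ISG monos than in Mrc1+ macs in each of the 3 libraries compared. The share of all genes with their highest mean in ISG monos was not counted.

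**Figure D1:**
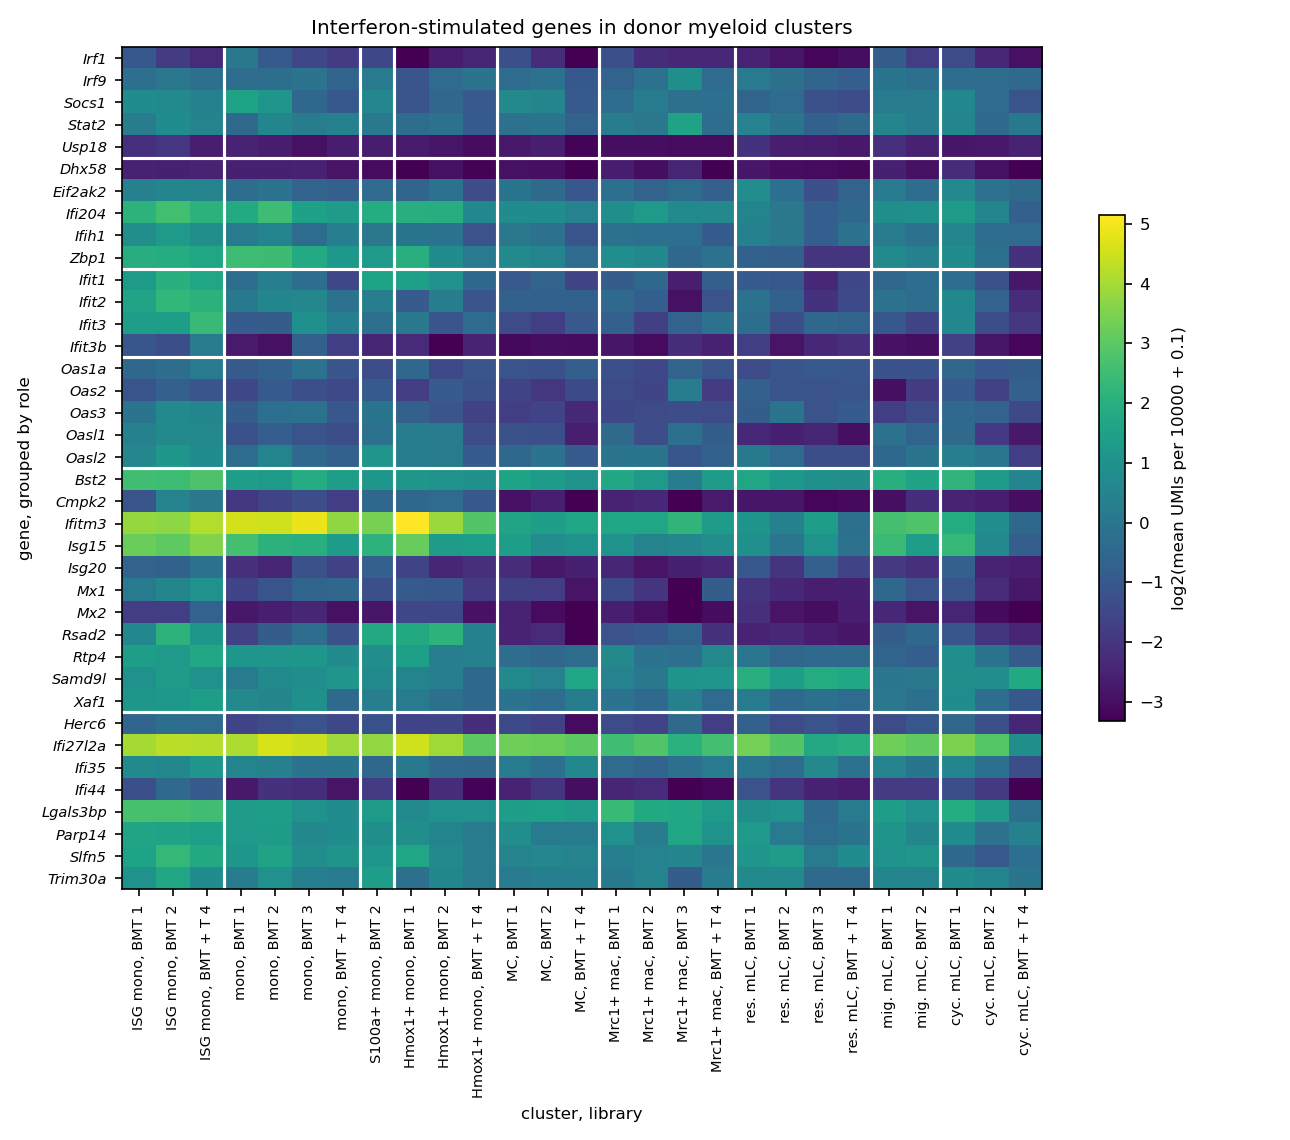
Level of each of the 38 genes (y axis, grouped by role) in each donor cluster and library with at least 20 cells (x axis), as log2(UMIs per 10000 + 0.1) on the color scale. Ifitm3 and Ifi27l2a are bright across all monocyte clusters, while the Ifit genes, Isg15, Bst2 and Mx1 are brightest in ISG monos.

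Summed over all 38 genes, ISG monos held 99.3 CP10K in BMT replicate 1 (1250 cells), 116.5 in BMT replicate 2 (678 cells) and 118.2 in the BMT + T cells library (68 cells). In BMT replicate 3 only 16 cells carried the label, too few for the comparisons, and their sum was 209.6. Mono held 85.3, 96.4, 93.1 and 59.0 CP10K in replicates 1 to 4. The ISG mono sums of the 3 compared libraries were all above the Mono sums of the 4. Resident mLCs held 45.4, 33.0, 25.7 and 23.6 CP10K and Mrc1+ macs 40.4, 36.0, 38.3 and 34.1, all below every ISG mono and Mono library. Ifitm3, which blocks the entry of enveloped viruses, and Ifi27l2a, a small interferon-induced membrane protein, supplied much of the Mono sum. Without both genes the sums were 69.4, 84.1 and 82.1 in ISG monos, in the order of libraries above, and 44.3, 48.6, 40.5 and 30.98 in Mono. The clusters then lay farther apart.

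Summed over the list, the signal was spread over cells rather than held by a few. With each cell thinned to 2000 UMIs, the median ISG mono carried 17, 20 and 18.5 UMIs of these genes in BMT replicates 1 and 2 and the BMT + T cells library. The 10th percentiles were 7, 9 and 9. Ifitm3 and Ifi27l2a supplied 29.8 of the 99.3 CP10K of ISG monos in BMT replicate 1. These percentiles therefore do not show how each gene was spread. Among the 1210 thinned ISG monos of that library, Isg15 had UMIs in 784 cells, Ifit2 in 372 and Rsad2 in 172. The median resident mLC carried 8, 5, 2 and 3 UMIs in replicates 1 to 4. Within ISG monos the thinned counts of the genes varied together weakly from cell to cell. Each gene was set against the summed UMIs of the others by Spearman correlation. The median was 0.23 over 37 genes and 1210 cells in BMT replicate 1 (range 0.01 to 0.54). It was 0.23 over 34 genes and 664 cells in BMT replicate 2 (range 0.05 to 0.48). Some genes had few UMIs after thinning, which limits such correlations: Usp18 had UMIs in 29 of the 1210 cells. Cells of a library share its preparation, and no test was made.

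All 4 Ifit genes were over 2-fold higher in ISG monos than in Mono in each library. Ifit1 was at 2.33, 4.02 and 3.04 CP10K in ISG monos (BMT replicates 1 and 2, then BMT + T cells) against 0.725, 1.14, 0.736 and 0.261 in Mono (replicates 1 to 4). Ifit2, a partner of Ifit1 in binding viral RNA, was at 2.95, 4.78 and 4.24 against 0.963, 1.39, 1.42 and 0.794. Ifit3 was at 2.58, 2.56 and 5.27 against 0.453, 0.467, 1.81 and 1.17. Every ISG mono library was above every Mono library for these 3 genes. The log2 differences within libraries were 2.14 ± 0.86, 1.84 ± 0.39 and 2.20 ± 0.10 (SD, n = 3). Ifit3b differed by 1.73 ± 0.13 (SD, n = 3) at a lower level of 0.385, 0.307 and 0.996 CP10K in ISG monos. Ifit3b and Ifit3 share reads: 58.1% of the 31-base stretches of Ifit3b transcripts and 39.4% of those of Ifit3 also occur in another gene, mostly in each other, so how UMIs were divided between them is uncertain.

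Among the effectors, Rsad2, which encodes viperin, the radical-SAM enzyme that makes a chain-terminating nucleotide, had the largest difference from Mono, 2.54 ± 0.39 on the log2 scale (SD, n = 3). It was at 1.44, 4.35 and 2.11 CP10K in ISG monos and 0.220, 0.463, 0.743 and 0.328 in Mono. It was not particular to ISG monos: S100a+ monocytes held 3.34 CP10K in BMT replicate 2, and Hmox1+ monocytes held 3.43, 4.30 and 1.21 in BMT replicates 1 and 2 and the BMT + T cells library. Its neighbor Cmpk2, a mitochondrial nucleotide kinase, differed by 1.56 ± 0.66 (SD, n = 3). Mx1, a gene of the dynamin-like GTPase family, was at 1.04, 1.36 and 1.83 CP10K in ISG monos and 0.226, 0.362, 0.567 and 0.595 in Mono. All ISG mono libraries were above all Mono libraries for Mx1. Bst2 was likewise separated, at 5.81, 5.60 and 6.84 against 2.56, 2.34, 3.57 and 2.50 CP10K. 9.45% of the 31-base stretches of Mx1 occur in other genes.

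Isg15 was at 9.33, 8.13 and 11.5 CP10K in ISG monos. In Mono it was at 6.22, 4.25, 3.91 and 2.47. The groups did not overlap, but the log2 difference ranged from 0.58 in BMT replicate 1 to 2.17 in the BMT + T cells library (mean 1.22). Lgals3bp, a secreted glycoprotein that binds galectins, was at 6.32, 6.35 and 5.70 CP10K in ISG monos and between 1.61 and 2.60 in Mono. Isg20, an exonuclease that degrades RNA, differed by 1.59 ± 0.14 (SD, n = 3).

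**Figure D2:**
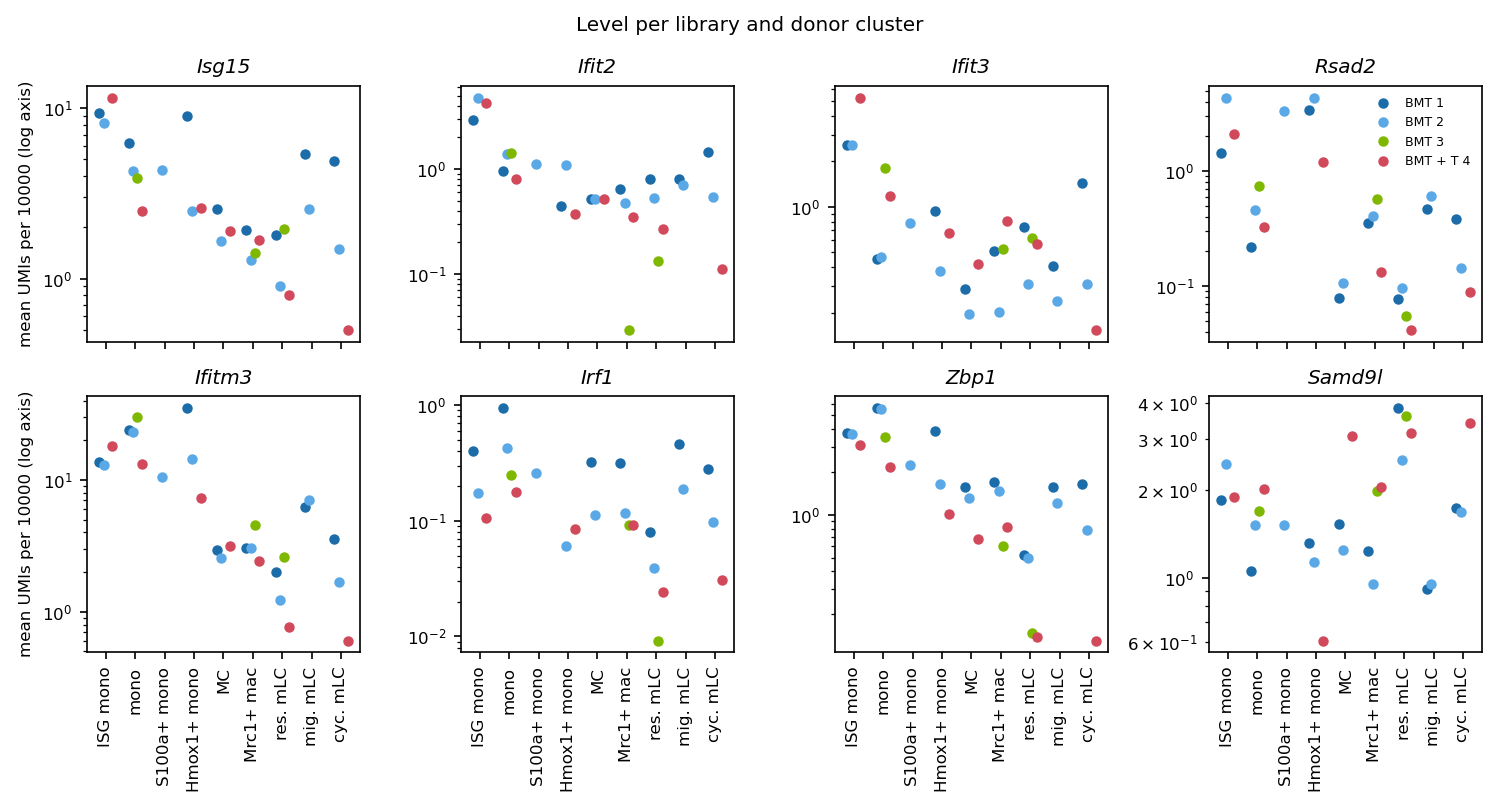
Level (y axis, UMIs per 10000, log scale, values at 0 not drawn) of 8 genes in each donor cluster (x axis), with a point for each library of at least 20 cells, colored by library. Isg15, Ifit2 and Ifit3 are highest in ISG monos, Ifitm3, Irf1 and Zbp1 reach their highest mean in Mono, and Samd9l is highest in resident mLCs.

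In all, 12 of the 35 genes past the filter were over 2-fold higher in ISG monos than in Mono in each of the 3 libraries, and 0.688% of the 7267 genes tested were. None of the 35 was over 2-fold lower in each library (0.372% of all genes). The median log2 difference over the 35 genes was 0.84, with library medians from 0.70 to 1.30, against -0.01 over all genes. All 4 Ifit genes were among the 12, with 4 of 10 effectors, 1 of 5 Oas genes, 3 of 8 other genes and none of the 4 sensors or 4 regulators. Beside these differences, markers of monocytes and of Langerhans cells also moved. Ly6c2 was at 3.94, 3.92 and 2.06 CP10K in ISG monos and at 12.8, 14.2, 8.69 and 4.07 in Mono. Epcam, an adhesion molecule of Langerhans cells, was at 3.30, 3.81 and 8.23 against 0.245, 0.345, 0.218 and 0.659. Their part in the differences was not tested.

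None of the 4 regulators past the filter was over 2-fold higher in ISG monos than in Mono in each library. Stat2 and Irf9, which are parts of the ISRE-binding complex, had log2 differences of 0.32 ± 0.30 and 0.25 ± 0.16 (SD, n = 3). Irf1 went the other way, at 0.401, 0.175 and 0.106 CP10K in ISG monos and 0.947, 0.429, 0.247 and 0.179 in Mono, below Mono in each library with a log2 difference of -0.81 ± 0.33 (SD, n = 3). It was the only one of the 35 genes below Mono in all 3 libraries. Socs1, an inhibitor of the receptor kinases that interferons induce, was lower in ISG monos in BMT replicates 1 and 2 and higher in the BMT + T cells library, with log2 differences from -0.80 to 1.38. Usp18, which removes ISG15 from proteins and dampens the receptor, stayed at 0.065 to 0.152 CP10K in ISG monos and did not pass the filter.

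The sensors split. Ifih1, which encodes MDA5, the sensor of long double-stranded RNA, was above Mono in each library (0.69 ± 0.10, SD, n = 3), as was Eif2ak2, the kinase PKR that halts translation (0.84 ± 0.32, SD, n = 3). Zbp1, which senses Z-form nucleic acid and can trigger necroptosis, was at 3.74, 3.65 and 3.10 CP10K in ISG monos and 5.60, 5.51, 3.48 and 2.17 in Mono, so the groups overlapped. Ifi204, a DNA sensor of the AIM2-like family, differed by 0.39 ± 0.37 (SD, n = 3), and 34.2% of its 31-base stretches occur in other genes. Dhx58, which encodes LGP2, a regulator of RNA sensing, was below the filter.

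Of the Oas family, which makes the 2′-5′ oligoadenylates that activate RNase L, Oas3 differed from Mono by 1.08 ± 0.43, Oas1a by 0.71 ± 0.51 and Oas2 by 0.32 ± 0.10 (SD, n = 3 each). The OAS-like genes Oasl1 and Oasl2 differed by 1.69 ± 0.23 and 1.00 ± 0.41 (SD, n = 3). Oasl1 was the sole Oas gene over 2-fold higher in each library. 22.8% of the 31-base stretches of Oas1a occur in other genes, chiefly its paralog Oas1g.

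Of the remaining genes, Herc6, an E3 ligase that attaches ISG15, and Ifi44 were over 2-fold above Mono in each library, with log2 differences of 1.07 ± 0.06 and 1.72 ± 0.26 (SD, n = 3). Trim30a, Slfn5, Parp14 and Ifi35 were above Mono in each library by less, with means of 0.66, 0.65, 0.42 and 0.53. Xaf1, a proapoptotic gene, and Rtp4 had means of 0.97 and 0.47. Ifi27l2a did not separate the clusters, at 16.1, 19.3 and 18.1 CP10K in ISG monos and 17.0, 24.6, 22.7 and 14.9 in Mono. Ifitm3 was below Mono in BMT replicates 1 and 2 and above it in the BMT + T cells library. Mx2, a relative of Mx1, had 0.187, 0.198 and 0.533 CP10K in ISG monos and at most 0.089 in Mono, and did not pass the filter.

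Against the other clusters the counts ran from 7 to 20. 18 of the 35 genes were over 2-fold higher in ISG monos than in Mrc1+ macs in each of the 3 libraries (0.716% of all genes), with a median log2 difference of 1.39. Against MC the count was 20 (0.881%) with a median of 1.42. Against resident mLCs it was 14 (4.55%) with a median of 1.37, and the count was 24 without BMT replicate 1. Against Hmox1+ monocytes 10 genes passed (2.44%), with a median of 1.05. That count was 21 without BMT replicate 1. Against cycling mLCs it was 7 (2.09%), with a median of 1.40, and the count was 25 without BMT replicate 1. Against migrating mLCs, found in 2 libraries, it was 15 (3.54%) with 1.12, and the count was 24 without BMT replicate 1. Against S100a+ monocytes, found in BMT replicate 2 alone, 11 genes were over 2-fold higher (1.29%), with a median of 0.73. In none of these comparisons was one of the 35 genes over 2-fold lower in each library, where 0.344% of all genes were against Mrc1+ macs, 0.275% against MC, 2.97% against resident mLCs, 1.89% against Hmox1+ monocytes, 4.76% against cycling mLCs, 2.55% against migrating mLCs and 3.41% against S100a+ monocytes.

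Samd9l was higher in resident mLCs than in ISG monos. This gene, a translation regulator that restricts poxviruses, was at 3.85, 2.55, 3.60 and 3.17 CP10K in resident mLCs and at 1.86, 2.46 and 1.90 in ISG monos. All resident mLC libraries were above all ISG mono libraries, with a log2 difference of -0.59, and Samd9l was the only one of the 35 genes lower in ISG monos in each library. Oas2 and Irf9 were nearly level between both clusters, with differences of 0.00 and 0.15. At the other extreme, Rsad2 had a log2 difference of 3.86 and Ifitm3, at 2.01, 1.23, 2.58 and 0.767 CP10K in resident mLCs, one of 3.47. Oasl1 at 3.21, Isg15 at 3.02 and Zbp1 at 3.01 were next. Against Mrc1+ macs the same measure was 2.80 for Ifit2, 2.72 for Rsad2 and 2.35 for Ifitm3. It was 0.24 for both Irf9 and Irf1. The highest Stat2 and Irf9 levels in Mrc1+ macs, 2.87 and 1.75 CP10K, came from BMT replicate 3, which held 45 cells of that cluster.

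The genes upstream of these targets did not show the same contrast. Of a list of 39 ligands, receptors and signaling genes of the interferon pathways, 24 were in the donor table and 19 passed the filter. None was over 2-fold higher or lower in ISG monos than in Mono in each library, and their median log2 difference was -0.08. Jak2, a receptor-bound kinase, was at 3.46, 5.07 and 2.65 CP10K in ISG monos against 4.34, 5.63 and 0.940 in Mono of the same libraries, lower in both BMT libraries and higher in the BMT + T cells library. A list of 20 genes chosen as interferon gamma targets, which overlap in part with those of other interferons, had 13 past the filter. Their median log2 difference from Mono was -0.04, and none was over 2-fold higher or lower in each library. Cxcl9, a T cell chemoattractant, was at 12.4, 14.5 and 7.23 CP10K in ISG monos against 26.1, 19.6 and 2.76 in Mono, while H2-Ab1, an MHC class II chain, differed by 0.84 in favor of ISG monos. Against resident mLCs, 2 of the 19 pathway genes and 5 of the 13 interferon gamma genes were over 2-fold higher in each library (4.55% of all genes). Against Hmox1+ monocytes 2 of the 19 and 11 of the 13 were (2.44% of all genes), with a median log2 difference of 1.84 for the interferon gamma genes.

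The second comparison set keratinocytes labelled BMT + T cells beside those labelled BMT. The genes were higher in BMT + T cells. Of the 18 of 39 genes past the filter, 17 were above 0 on the log2 scale, 8 were over 2-fold higher (0.315% of the 7615 genes tested) and none was over 2-fold lower (0.0657%). The median log2 ratio over the 18 was 0.89, against 0.003 over all genes. Both libraries were keratinocytes by their markers: the basal keratin Krt14 was at 308.3 CP10K in BMT and 309.6 in BMT + T cells. No test is possible with 1 library of each label.

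The regulators past the filter ranged from -0.07 to 0.88 on the log2 scale. Irf7, the master regulator of the type I interferon loop, was at 0.208 CP10K in BMT (577 UMIs) and 0.466 in BMT + T cells (1148 UMIs), a log2 ratio of 0.88. Stat2 was at 0.123 and 0.270 (log2 ratio 0.73) and Irf9 at 0.449 and 0.743 (0.62). Socs1 was at 0.209 and 0.193, a log2 ratio of -0.07, and was the one gene past the filter below 0. Irf1 held 54 and 71 UMIs and did not pass the filter, and the ratio of its UMI rates was 1.47 (95% counting interval 1.01 to 2.13).

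The effectors led the list. Rtp4, a suppressor of flaviviruses, was at 0.0885 CP10K in BMT and 0.501 in BMT + T cells, a log2 ratio of 1.67 that ranked the gene 5 among the 7615. 26.1% of its 31-base stretches occur in another gene. Xaf1 was at 0.211 and 0.631 (log2 ratio 1.24), Isg15 at 0.433 and 1.08 (1.15), and Bst2 at 0.413 and 0.995 (1.09). Samd9l was at 0.0381 and 0.179 (1.01). Each of these 5 effectors was over 2-fold higher in BMT + T cells. Ifitm3, with the most UMIs of the 39 genes, was at 21.3 and 23.6 CP10K, a log2 ratio of 0.15. The ratio of its UMI rates was 1.12 (95% counting interval 1.11 to 1.13).

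Ifi27l2a had the largest gain in UMIs, from 6460 UMIs and 2.34 CP10K in BMT to 18789 UMIs and 7.48 CP10K in BMT + T cells, a log2 ratio of 1.63. Lgals3bp was at 0.0412 and 0.162 (0.89), Parp14 at 0.119 and 0.282 (0.80) and Ifi35 at 0.421 and 0.590 (0.41). Of the Ifit and Oas families 1 gene each passed the filter. These were Ifit1, at 0.0934 and 0.342 CP10K (1.19), and Oasl2, at 0.0861 and 0.307 (1.13). The sensors that passed were Ifih1, at 0.161 and 0.302 (0.62), and Eif2ak2, at 0.352 and 0.419 (0.20).

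**Figure D3:**
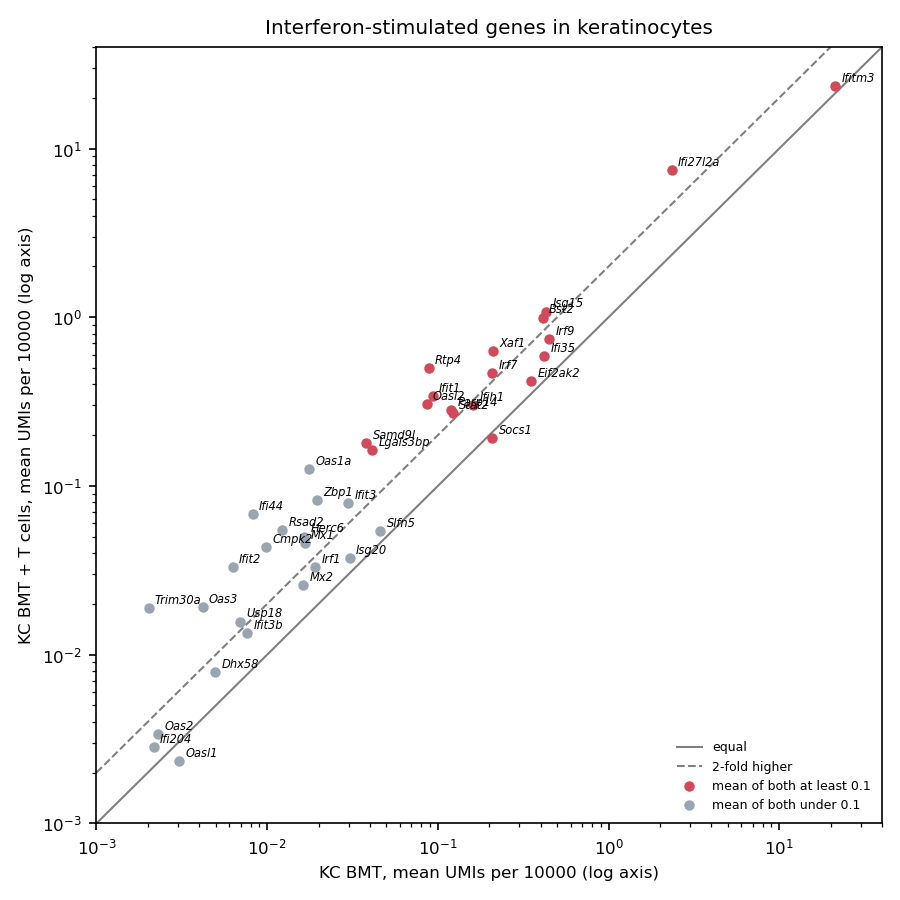
Level of each gene in keratinocytes labelled BMT (x axis) and BMT + T cells (y axis), both in UMIs per 10000 on log scales, with lines of equal level and of 2-fold difference. The 39 genes lie mostly above the line of equal level, with Ifitm3 close to it at the top and Trim30a, Ifi44 and Oas1a far above it.

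Genes at a few hundredths of a UMI per 10000 are compressed by the 0.1 that was added, so they were also read as rates of summed UMIs, an alternative added after the data had been seen. Oas1a went from 53 to 305 UMIs, a rate ratio of 6.41 (95% counting interval 4.78 to 8.76). Ifi44 went from 25 to 148 UMIs (6.60, 4.30 to 10.5), and Trim30a from 8 to 48 (6.69, 3.14 to 16.4). Zbp1 went from 55 to 203 UMIs with a rate ratio of 4.11, Cmpk2 from 28 to 99 with 3.94, Ifit2 from 25 to 81 with 3.61 and Rsad2 from 42 to 125 with 3.32. Low abundance thus did not mean a small ratio. Of the 36 genes with at least 20 UMIs over both libraries, 24 had a rate over 2-fold higher in BMT + T cells (1.7% of the 13319 genes at that depth) and none a rate over 2-fold lower (1.39%), with a median log2 rate ratio of 1.24. The counting interval was above 1 for 31 of the 36 (14.5% of all genes). Isg20, Slfn5, Ifit3b and Dhx58 had intervals that held 1, as did Socs1. Oas2, Oasl1 and Ifi204 had fewer than 20 UMIs, and Oasl1 went from 14 to 5 UMIs with an interval of 0.112 to 1.17.

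The median log2 ratio was above 0 in all 5 annotated keratinocyte clusters. 23 of the 39 genes were higher in BMT + T cells in each cluster (2.99% of all listed genes), among them 16 of the 18 past the filter (7.71% of all genes past it). Basal cells (1684 and 1712 cells) had a median log2 ratio of 0.97 and 8 genes over 2-fold higher (0.355% of all genes there). The cluster the authors left as KC_Five had 0.94 and 9 genes (0.328%), and KC_Four had 0.84 and 7 genes (0.341%). Differentiated cells had 0.68 and 2 genes (0.171%). Follicular cells (278 and 259 cells) had the lowest, with 0.34 and 3 genes (0.223%). Isg15 was highest in KC_Five, at 0.951 CP10K in BMT and 2.37 in BMT + T cells. In differentiated cells it was at 0.297 and 0.575. Irf7 was at 0.260 and 0.278 in follicular cells, nearly level, and at 0.267 and 0.794 in KC_Five.

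**Figure D4:**
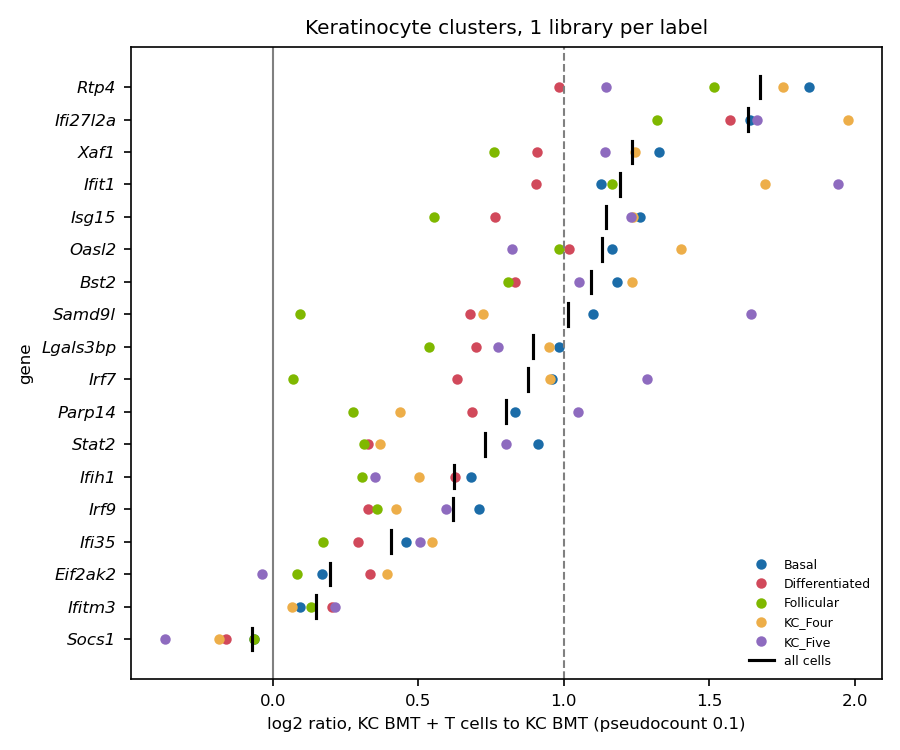
Log2 ratio of BMT + T cells to BMT (x axis, 0.1 UMIs per 10000 added) for the 18 genes past the filter (y axis), with a colored point for each annotated keratinocyte cluster and a bar for all cells. Follicular cells lie nearest to 0 for Irf7 and Samd9l, Ifi27l2a is past the dashed 2-fold line in each cluster, and Socs1 is below 0 in each.

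Most cells held UMIs of these genes, but most of the summed level came from Ifitm3 and Ifi27l2a. Together they made up 23.6 of 27.3 CP10K in BMT and 31.1 of 39.3 in BMT + T cells. The percentiles below therefore do not show how the other genes were spread over cells. With each keratinocyte thinned to 2500 UMIs, the median cell held 5 UMIs of these genes in BMT and 8 in BMT + T cells, and the 90th percentiles were 14 and 21. 7.37% and 4.05% of cells held none. Of 15 leukocyte markers, 25 UMIs were found in 23 BMT cells (0.811% of cells) and 98 UMIs in 27 cells of the BMT + T cells library (1.04%), with 6 and 2 markers at 0. Without those cells the median log2 ratio was still 0.89 and the count of genes over 2-fold higher 8.

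Upstream genes moved less in keratinocytes. Of the 39 pathway genes, 29 were in the table and 17 passed the filter. None was over 2-fold higher or lower, and the median log2 ratio was 0.06. Socs3, a feedback inhibitor of cytokine receptors, was at 0.161 and 0.238 CP10K, a log2 ratio of 0.37. Ifnb1 and Ifnl2 had 0 UMIs in both libraries, which allows up to 3 UMIs per library. Ifng, the gene of interferon gamma, had 0 UMIs in BMT and 11 in BMT + T cells, all in 1 cell labelled basal that also held 2 UMIs of Cd3e, 8 of Nkg7 and 2 of Ptprc, markers of T cells, cytotoxic cells and leukocytes. Of the 20 genes of the interferon gamma list, 11 passed the filter and 9 were over 2-fold higher, with a median of 1.19. Cd74, the MHC class II chaperone, had the largest log2 ratio at 2.09, and H2-Ab1 had 1.94, Iigp1 1.70 and Cxcl9 1.57.

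The third comparison asked the same of donor myeloid cells. There the genes did not pass a test in either direction. The 3 clusters with at least 20 cells in all 4 libraries (Mono, Mrc1+ macs and resident mLCs) were averaged with equal weight and tested with limma over 7345 genes. With a Benjamini-Hochberg adjusted p under 0.05 and a change over 2-fold as the threshold, 0 genes were called (0% of all genes), and 4.79% of all genes had an unadjusted p under 0.05. Of the 34 genes of the list that were tested, 1 had an unadjusted p under 0.05. This was Ifitm3, which was lower in BMT + T cells with a log2 fold change of -0.88 (SE 0.32), an unadjusted p of 0.024 and an adjusted p of 0.949 by limma. The lone BMT + T cells library was assumed to vary like the BMT libraries, p-values measure only the spread between these samples, and an exact permutation of 4 libraries cannot go below 0.25.

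By direction, 28 of the 34 genes were below 0 and 6 above, with a median log2 fold change of -0.31 against 0.05 over all genes. For 15 of the 34 the BMT + T cells library was below every BMT library (20.3% of all genes), and for 2, Mx1 and Samd9l, above every one (31%). The 17 others lay inside the BMT range. Zbp1 was at a log2 level of 0.89, 0.79 and -0.23 in BMT replicates 1 to 3 and -0.33 in BMT + T cells, a change of -0.82 (SE 0.43). Socs1 was at 0.24, 0.29 and -0.64 against -0.85, a change of -0.81 (SE 0.38). In both genes BMT replicate 3 lay near the BMT + T cells library and apart from the other BMT libraries. Isg15 was at 1.53, 0.87 and 1.21 against 0.68, a change of -0.52 (SE 0.32). Ifit3 went the other way, at -0.61, -1.28 and -0.07 against -0.12, a change of 0.53 (SE 0.42). Mx1 was at -1.68, -1.83 and -2.17 against -1.32, a change of 0.58 (SE 0.30). Rtp4, Ifi35 and Isg20 had changes of 0.03, -0.01 and 0.06.

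**Figure D5:**
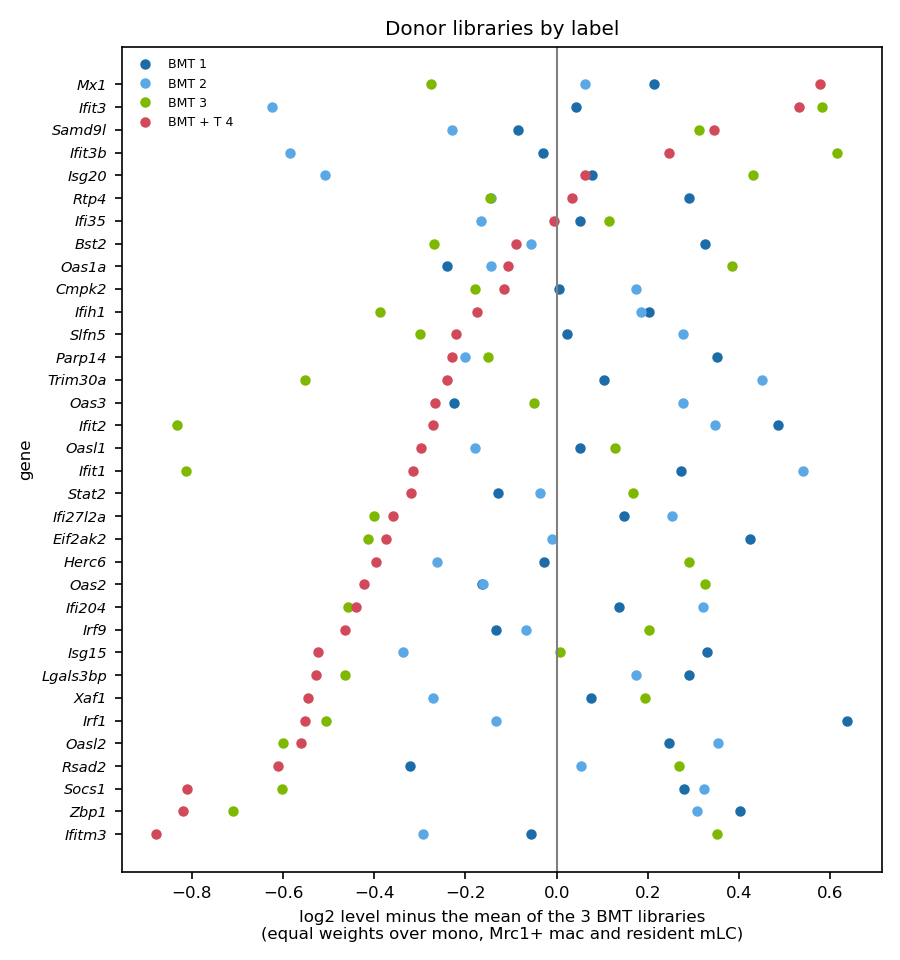
Log2 level of the 34 tested genes (y axis) in each donor library minus the mean of the 3 BMT libraries (x axis), averaged over Mono, Mrc1+ macs and resident mLCs. The red points of BMT + T cells lie below every BMT library for 15 genes and above every one for Mx1 and Samd9l.

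These calls depended on BMT replicate 3. Without it limma called 203 of the 7345 genes, and 2 of the list were called lower: Zbp1 at -1.17 (adjusted p 0.00139) and Socs1 at -1.11 (adjusted p 0.0017), beside 1.58% of all genes called lower. Library names fall into 2 pairs, with replicates 1 and 2 in one and replicates 3 and 4 in the other. With a term for the pair 141 genes were called. Of the list this was Ifitm3 alone, at -1.23 (adjusted p 0.0208), beside 0.912% of all genes called lower, and the median over the list was -0.07. The pair and the label are largely confounded, since 1 BMT library stood beside the BMT + T cells library. Among the 20 pathway genes tested 13 were below 0, and among the 14 interferon gamma genes 11 were, with medians of -0.29 and -0.39.

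The host library showed how the genes stood in myeloid cells of host origin that remained in the epidermis. The authors annotated 7 host clusters by number. Clusters 1 to 4 (276, 170, 161 and 90 cells) were Langerhans-like by Cd207, Epcam and Mfge8, with Cd207 at 1.56, 14.0, 2.83 and 6.84 CP10K, and cluster 4 also held the migration receptor Ccr7 at 2.87. Cluster 5 (43 cells) was led by Krt14 at 205.3 CP10K and cluster 6 (23 cells) by Cd3e at 41.0. The summed level of the 39 genes was 14.8, 13.6, 16.4 and 22.3 CP10K in clusters 1 to 4. These sums were below the donor sums of ISG monos, Mono, Mrc1+ macs and resident mLCs in every library. Irf7 was not part of the donor sums, and the donor table had been normalized separately. Without Ifitm3 and Ifi27l2a, host clusters 1 to 4 held 14.5, 11.8, 16.1 and 21.6 CP10K. Resident mLCs then held 33.2, 24.5, 19.7 and 19.1 in replicates 1 to 4. Host cluster 4 was thus above resident mLCs of BMT replicate 3 and of the BMT + T cells library.

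Some of the genes were detected in each Langerhans-like cluster and others hardly. Slfn5, a member of the Schlafen family, was at 2.55, 0.81, 2.18 and 2.36 CP10K in clusters 1 to 4. Herc6 was at 1.42, 0.78, 1.29 and 1.53, Samd9l at 1.69, 0.91, 1.43 and 1.10, and Xaf1 at 0.82, 0.87, 2.57 and 1.89. Ifit2 had 0, 0, 0 and 1 UMIs, at or under the 3 UMIs that a count of 0 allows, and Ifit3 had 0, 3, 3 and 5. Ifit1 was at 0.20, 0.48, 0.04 and 0.20 CP10K. Isg15 was at 0.07, 0.59, 0.21 and 1.79 CP10K, highest in cluster 4, as were Irf1 (0.22, 0.17, 0.16 and 0.80), Irf7 (0.11, 0.41, 0.04 and 0.69) and Irf8, a pathway gene (0.84, 1.60, 0.94 and 7.84). In cluster 4, 9 of the 27 genes past the filter were over 2-fold above the mean of the other clusters (8.95% of all genes), with a median of 0.82. The counts were 3, 2 and 3 in clusters 1 to 3 (12.9%, 11.7% and 12% of all genes) and 5, 6 and 3 in clusters 5 to 7 (16.8%, 19.8% and 16.7%). Ifitm3 was at 19.7 CP10K in the Krt14+ cluster 5.

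Set beside donor resident mLCs, 9 of 31 genes were higher in all resident mLC libraries than in all 4 Langerhans-like host clusters (22.5% of all genes). In the same comparison 3 were lower (16.3%). Both counts were near the shares of all genes, so the values below describe single genes and not the list. The resident mLCs had the higher Ifi27l2a, at 3.32 to 10.2 CP10K against 0.0348 to 0.639, and the higher Rtp4, Bst2 and Samd9l. The host clusters had the higher Irf1, at 0.164 to 0.802 against 0.00922 to 0.0806, Herc6, at 0.778 to 1.53 against 0.265 to 0.519, and Dhx58. The host cells were shallower and held more mitochondrial UMIs, and the part of quality in these values was not tested.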

How the data were processed

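Single cells had been captured with the 10x Genomics 5′ kit. The submitters' processing notes name kallisto, bustools and Seurat and the build GRCm38, and the study's methods state that doublets were removed by the authors with DoubletFinder before deposit. The values deposited by the authors are natural log values, ln(1 + UMIs per 10000 UMIs of the cell), and the metadata give the cluster of each cell and the percent of mitochondrial reads deposited by the authors. Every nonzero value gave back a whole UMI count within 0.001, and levels were recomputed from these counts. 0 columns of unmapped samples were present.

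Groups follow the labels. The genes and lists were chosen with earlier results of these data known. The rule for naming was that each of the 39 genes is accounted for, by role, with values per library for those with the largest or opposite differences. Levels are means over cells per library and cluster, for clusters of at least 20 cells. Donor labels were compared with limma 3.58.1 (R 4.3.3, statmod 1.5.0, trend and robust prior) on log2(CP10K + 0.1). Other comparisons have no test. Not every gene of the pathway list is reported here by name. Python 3.11.15, numpy 2.4.6, pandas 2.3.3, scipy 1.17.1 and matplotlib 3.10.9 were used. The comparisons were tested on simulated data. Promoters came from the RefSeq table of GRCm38.p6 and shared 31-base stretches from GENCODE transcripts.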

Additional observations from a re-analysis of the deposited data

Results flagged for a closer look

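7 of the 17 genes (41.2%) that could be compared in both tables had differences of opposite sign between the labels: the BMT + T cells library was below every BMT library in donor myeloid cells, and the counting interval of the keratinocyte rate ratio was above 1. Of all 5909 genes compared in the same way, 827 (14.0%) had opposite signs in one way or the other. The 2 shares are not alike, because the rise in keratinocytes by itself raises the share of the list. That interval was above 1 for 31 of 36 genes of the list and for 14.5% of all genes with at least 20 UMIs. By the donor libraries alone, 15 of 34 genes of the list and 20.3% of all genes were below every BMT library. The difference between the tables was not tested, the donor changes did not pass limma's threshold, and the keratinocyte values have no replicates. Stat2 had a log2 change of -0.32 in donor cells and 0.73 in keratinocytes, and Irf9 had -0.47 and 0.62. Isg15 had -0.52 and 1.15, Xaf1 -0.55 and 1.24, and Lgals3bp -0.53 and 0.89. Parp14 had -0.23 and 0.80. Ifitm3 had the largest donor change, -0.88, beside 0.15 in keratinocytes.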

How the results depend on the processing

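The levels are low, so what is added before the log sets the size of many differences. With 1 CP10K added, the medians of ISG monos against Mono, Mrc1+ macs, MC and resident mLCs were 0.45, 0.71, 0.80 and 0.72, with 3, 6 and 8 genes over 2-fold higher for the first 3. With means of the deposited ln values they were 0.38, 0.65, 0.65 and 0.69, with 1, 3, 4 and 6 genes. The MC median was 1.83 with clusters of at least 10 cells. When single libraries were left out these medians spanned 0.71 to 0.95, 1.25 to 1.51, 1.31 to 1.71 and 1.09 to 1.67, and the counts 12 to 13, 18 to 25, 20 to 25 and 14 to 24. In keratinocytes the median and count were 0.23 and 1 with 1 added, 0.16 and 1 with means of ln values, and 1.24 and 24 as rates. The median was 1.21 with 0.01 added and 0.41 with no filter. Differentiated cells alone gave 0.68 and 2, and follicular cells 0.34 and 3. No keratinocyte median reversed. The host medians were fragile. With 1 added, clusters 2 to 7 gave -0.094, 0.065, 0.20, -0.13, -0.18 and -0.18, and with means of ln values clusters 1 to 7 gave -0.022, -0.15, 0.021, 0.037, -0.017, -0.048 and -0.081. With no filter clusters 1 to 5 gave -0.13, -0.027, 0.011, 0.51 and -0.047 and cluster 7 gave -0.29. Clusters 1 and 2 changed sign, and the cause was not tested.

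For the donor labels the median was -0.15 with 1 added, -0.080 with means of ln values, -0.46 with all cells pooled, -0.071 with the library pair as a term and -0.063 within Mrc1+ macs. 0 to 2 genes were called when single libraries were left out, with medians of -0.37 to -0.23, and 1 with the pair term. Ifit2 changed sign to 0.56 with the pair term and 0.25 within Mrc1+ macs, Ifit3 to -0.068 pooled and -0.051 with the pair term, and Oasl2 to 0.039 with the pair term. Isg15 was at 0.13 within Mrc1+ macs, Mx1 at -0.42 pooled and -0.27 within resident mLCs, and Stat2 at 0.27 within Mono. No paired analysis was possible because the groups compared share no replicate number. Most Ifit and Oas transcripts in keratinocytes and host cells were limited by their few UMIs.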

Other observations

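The balance among the Ifit genes differed between donor libraries. Over all cells, the UMIs of Ifit3 and Ifit3b together came to 1.03 and 0.58 for each UMI of Ifit2 in replicates 1 and 2, and to 2.14 and 1.91 in replicates 3 and 4. In Mono the same ratio was 0.483 and 0.363 against 1.72 and 2.25, and in resident mLCs 1.72 and 0.701 against 5.33 and 3.03. The ratio of Ifit1 to Ifit2 over all cells was lower rather than higher in the second pair and by less, at 0.866 and 0.961 against 0.640 and 0.787. The split follows the pairs of library names and not the labels, and its cause was not tested.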
